A study of Mus musculus with 10 samples.

Results

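Reactive astrocyte genes are the genes that astrocytes, the star-shaped support cells of the brain, switch on after injury. The set described here holds 32 such genes out of 55471 gene identifiers in the table. They were chosen by symbol from a published division of the reactive response into pan-reactive genes (12 members), neurotoxic-type genes (9 members) and protective-type genes (11 members). All 32 were found, each under 1 identifier, and 30 had enough counts to be tested.

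The data are RNA-seq libraries of the whole brain of 10 Swiss Webster mouse pups labelled WT, all with a hypoxic-ischemic brain injury, at neonatal day 5 as the series gives it. Whether that is the day of the injury or of collection is not stated. Pups 6 to 10 were given allopregnanolone, a metabolite of progesterone that strengthens signalling by GABA, and pups 1 to 5 had the same injury and no treatment. No uninjured brain is analysed here, so the values compare injured brains with each other. Each pup gave 1 library, and levels are given as CPM, counts scaled to the total of their library and adjusted between libraries by TMM.

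Astrocytes respond to injury through cytokines of the interleukin 6 family, which signal through the receptor gp130 and the transcription factor STAT3, and through interleukin 1, tumor necrosis factor and interferons. In mice, one set of genes was described in astrocytes after inflammatory stimulation and named neurotoxic (A1), and another after ischemia and named protective (A2), while pan-reactive genes such as Gfap answered to both. Many of these genes are also made by microglia, endothelial cells or fibroblasts, so in whole-brain RNA a level is a sum over cell types. Fewer cells of a type and less RNA per cell cannot be told apart in such samples.

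Astrocytes were well represented in every library, and the marker lists moved in different ways. The 12 astrocyte markers summed to 3803 to 4293 CPM in allopregnanolone libraries and to 2954 to 3375 CPM in untreated ones, with no overlap, and 7 of the 12 rose while none fell. The 8 microglia markers summed to 242 to 262 CPM with allopregnanolone and 237 to 312 CPM untreated, with 1 of 8 higher. The 8 endothelial markers summed to 175 to 211 CPM with allopregnanolone and 171 to 187 CPM untreated, with 2 higher, and the 6 oligodendrocyte markers to 2833 to 3851 CPM with allopregnanolone and 970 to 1804 CPM untreated, with all 6 higher. Of 6 neuron markers 1 rose and 2 fell, and none of 6 choroid plexus, 5 ependymal and 8 mural cell and fibroblast markers passed. Over all genes tested, 6.61% rose and 4.65% fell (edgeR). With the microglia marker mean as a covariate S100a10 and B3gnt5 were the members called lower and none was called higher (edgeR, where 4.04% of all genes fell and 5.51% rose). With the astrocyte marker mean as a covariate no gene and no member passed (0 of 17101 in edgeR, 318 higher and 414 lower at an unadjusted p under 0.05). Since the astrocyte marker sums do not overlap between the groups, that covariate and the treatment cannot be told apart. The part of the other marker lists in the results was not tested. Library totals were 18656836 to 34270723 estimated counts.

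With allopregnanolone, S100a10 and B3gnt5 fell, and no other tested member passed the threshold in either direction. The threshold was an adjusted p under 0.05 in edgeR's quasi-likelihood test, adjusted over all 17101 genes tested. Over all of these, 4.65% fell and 6.61% rose (11.3% in all), so the 2 of 30 tested members that fell (6.67%) are a share close to that of all genes. The count of members that rose was 0 in edgeR, in limma and in DESeq2. At an unadjusted p under 0.05 it was 3 members higher and 11 lower in edgeR, where 14.4% of all genes were higher and 13.1% lower (27.5% in all). In limma, which called the same 2 members lower, 4.53% of all genes fell and 6.63% rose. The log2 fold change was below 0 for 21 of the 30 tested members, with a median of -0.39, against 8692 of 17101 genes and a median of -0.0046 over all genes tested. Only B3gnt5 of all 32 members had every allopregnanolone library below every untreated one, a pattern seen in 4.2% of all genes tested, and none had every one above, seen in 5.44%.

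**Figure D1:**
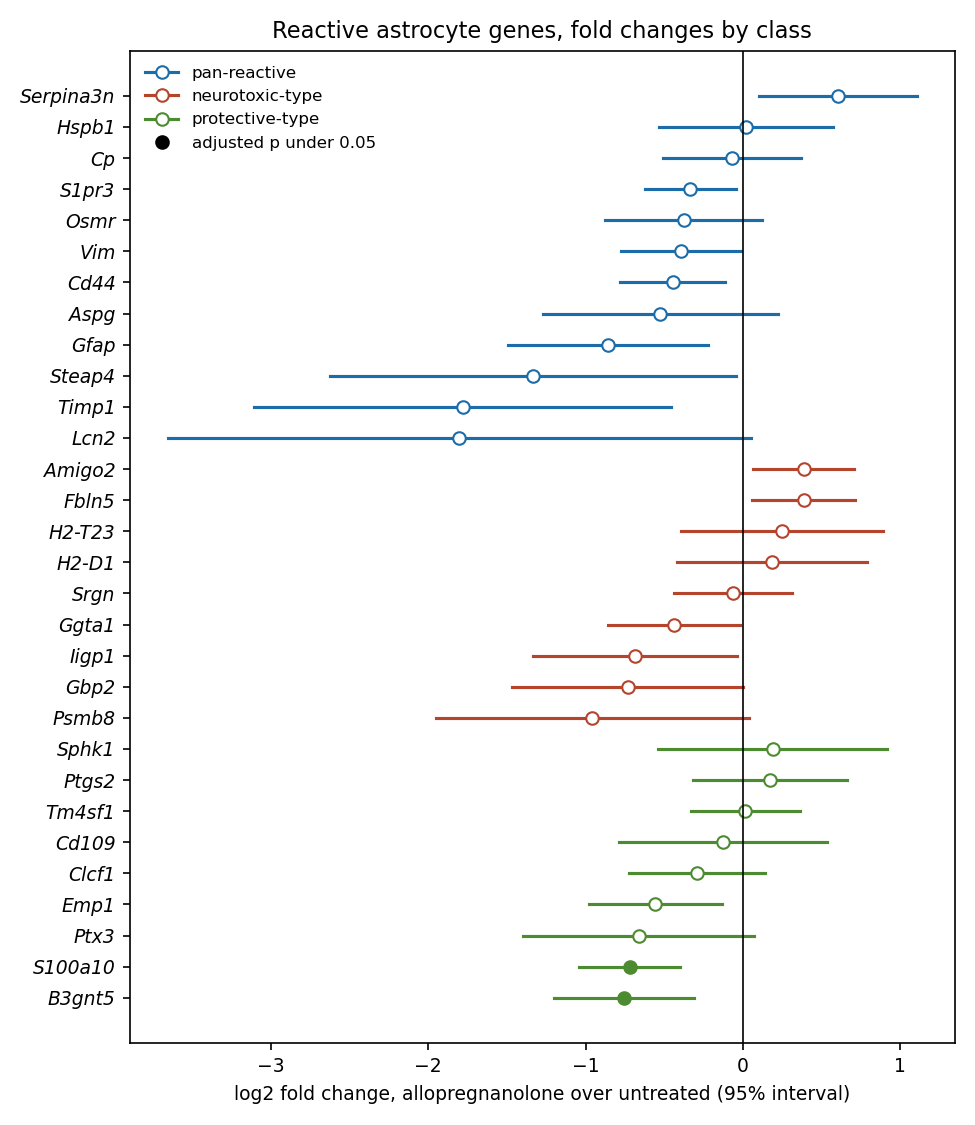
Log2 fold change of the 30 tested members, allopregnanolone over untreated, with 95% intervals (n = 5 libraries per group), ordered by class and size. Filled points passed an adjusted p of 0.05, which were S100a10 at -0.72 and B3gnt5 at -0.76, while the widest intervals belong to Lcn2, Timp1 and Steap4.

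Both members that fell were protective-type genes, 2 of the 9 tested (22.2%), where 4.65% of all genes fell (edgeR). In DESeq2, 2 pan-reactive genes fell as well, where 6.6% of all genes fell. S100a10 encodes a small protein partner of annexin A2 (ENSMUSG00000041959, chromosome 3, 93555080 to 93564643 on GRCm38). It was at 6.86, 4.90, 7.15, 5.95 and 7.48 CPM in allopregnanolone pups 6 to 10. In untreated pups 1 to 5 it was at 11.9, 12.1, 11.1, 10.999 and 7.25 CPM. The first 4 untreated pups lay above every treated pup, and untreated pup 5 lay within the treated range. S100a10 averaged 6.47 ± 1.05 CPM with allopregnanolone and 10.7 ± 1.96 CPM untreated (SD, n = 5 each), a 1.64-fold lower level with a log2 fold change of -0.72 (SE 0.15, adjusted p = 0.00930, edgeR). Its partner Anxa2, which is outside the set, was at 8.12 ± 1.44 CPM with allopregnanolone and 8.89 ± 2.16 CPM untreated (SD, n = 5 each, adjusted p = 0.687, edgeR).

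B3gnt5 encodes a glycosyltransferase that starts the sugar chains of lacto-series glycolipids (ENSMUSG00000022686, chromosome 16, 19760208 to 19772753). It was at 1.82, 1.52, 1.39, 1.20 and 2.11 CPM in allopregnanolone pups 6 to 10, and at 2.23, 2.24, 2.46, 3.28 and 3.47 CPM in untreated pups 1 to 5. The groups did not overlap, and the lowest untreated pup stood just above treated pup 10. The level was 1.69-fold lower, at -0.76 on the log2 scale (SE 0.21, adjusted p = 0.0326, edgeR). The call rests on 26 to 78 counts per library, and it was lost when any 1 of 6 libraries was left out (treated pups 7, 8 and 9 and untreated pups 3, 4 and 5), with adjusted p of 0.0534 to 0.0825 and log2 fold changes of -0.80 to -0.66.

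The other 7 tested protective-type genes did not pass. Emp1, a membrane protein of growth-stimulated cells, was at 2.42 to 2.80 CPM in allopregnanolone libraries, a narrow range, and at 2.45 to 5.27 CPM in untreated ones (log2 fold change -0.56, SE 0.20, adjusted p = 0.0830, edgeR). Ptx3, a secreted pentraxin of innate immunity, had a log2 fold change of -0.66 (SE 0.34), and Clcf1, a cytokine of the interleukin 6 family, one of -0.29 (SE 0.20). Cd109, a co-receptor of TGF-beta, Tm4sf1, a tetraspan membrane protein, Ptgs2, the prostaglandin-forming cyclooxygenase 2, and Sphk1, the kinase that makes sphingosine-1-phosphate, had log2 fold changes of -0.13 to 0.19. Their 95% intervals were wide, from -0.54 to 0.92 for Sphk1 and from -0.33 to 0.36 for Tm4sf1, so changes within these bounds could not be told from none. Tgm1, a transglutaminase, was below the count minimum with 0 to 4 counts per allopregnanolone library, and 35, 4, 12, 7 and 5 counts in untreated pups 1 to 5. Slc10a6, a transporter of steroid sulfates, had 0 to 4 counts in each of the 10 libraries and was not tested.

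**Figure D2:**
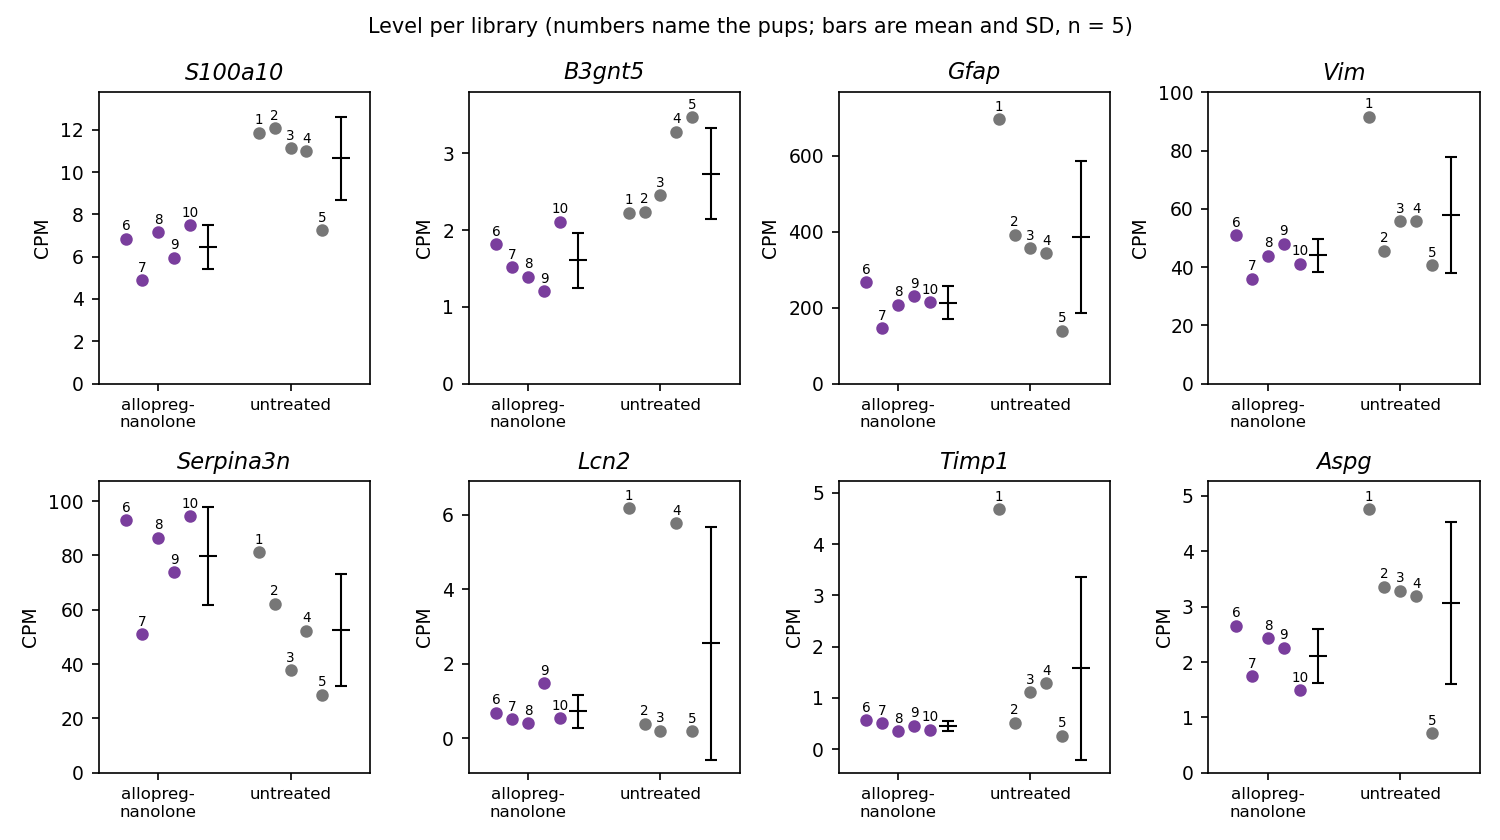
TMM-scaled CPM of 8 members in each library, with allopregnanolone pups 6 to 10 at left and untreated pups 1 to 5 at right of each panel, and the mean and SD (n = 5) beside each group. S100a10 and B3gnt5 are lower with allopregnanolone, while for Gfap untreated pup 1 at 696 CPM and untreated pup 5 at 139 CPM enclose all treated pups.

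Pan-reactive genes had log2 fold changes below 0 in 10 of 12 cases, with a median of -0.42. None of the 12 passed in edgeR or limma, where 11.3% and 11.2% of all genes passed. DESeq2 called 2 of them lower, Timp1 (adjusted p = 0.0229) and Cd44 (adjusted p = 0.0396), where 6.6% of all genes fell and 8.76% rose. At an unadjusted p under 0.05, edgeR had 6 of the 12 lower and 1 higher, where 13.1% of all genes were lower and 14.4% higher. Gfap, the intermediate filament protein by which reactive astrocytes are recognised (ENSMUSG00000020932, chromosome 11, 102887336 to 102900912), was at 266, 146, 207, 230 and 214 CPM in allopregnanolone pups 6 to 10. In untreated pups 1 to 5 it was at 696, 392, 357, 343 and 139 CPM. Untreated pups 1 to 4 were above all treated pups, and untreated pup 5 was the lowest of all 10. The difference was -0.86 on the log2 scale (SE 0.30, 95% interval -1.49 to -0.22, adjusted p = 0.0771, edgeR).

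The Gfap difference depended on 2 untreated libraries in opposite ways. Without untreated pup 5 it passed (log2 fold change -1.07, adjusted p = 0.00538, edgeR), and without untreated pup 1 it was smaller (-0.54, adjusted p = 0.193). Without both it was -0.77 (adjusted p = 0.00702), a setting chosen after the data had been seen. These are the highest and lowest untreated libraries for Gfap. Leaving out both, or pup 5 alone, narrows the untreated spread, so neither pass is further support. Without untreated pups 1 to 3, which leaves pups 4 and 5 as the untreated group, it was -0.18 (adjusted p = 0.801), and with no filter on low counts it passed at -0.86 (adjusted p = 0.0367). Over all 22 alternative analyses, the one without untreated pups 1 and 5 among them, Gfap passed in 4, and the sign was the same in each. As a percentage of the astrocyte marker sum, Gfap stood at 7.00, 3.53, 4.83, 5.98 and 5.31% in allopregnanolone pups 6 to 10 and at 21.1, 11.6, 12.1, 11.1 and 4.31% in untreated pups 1 to 5. On that scale untreated pup 5 was within the treated range and the other 4 untreated pups were above it. The marker sum itself was higher with allopregnanolone (3803 to 4293 against 2954 to 3375 CPM untreated), which widens the Gfap difference on that scale.

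Vim, the second intermediate filament of immature and reactive astrocytes (chromosome 2, 13573927 to 13582826), followed a similar order with a smaller range. It was at 50.9, 36.0, 44.0, 48.0 and 41.2 CPM in allopregnanolone pups 6 to 10, and at 91.7, 45.7, 55.9, 55.9 and 40.7 CPM in untreated pups 1 to 5. The groups overlapped, with a log2 fold change of -0.40 (SE 0.18, adjusted p = 0.166, edgeR). Per kilobase of exon, Gfap was the most abundant member, at 50.4 CPM per kilobase with allopregnanolone and 91.4 untreated. Serpina3n came next at 38.6 CPM per kilobase with allopregnanolone and 25.4 untreated, and Vim stood at 9.28 with allopregnanolone and 12.2 untreated.

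Serpina3n, a secreted inhibitor of serine proteases, went the other way from most pan-reactive members. It was at 93.0, 51.0, 86.6, 73.8 and 94.5 CPM in allopregnanolone pups 6 to 10, against 81.2, 62.2, 37.8, 52.3 and 28.7 CPM in untreated pups 1 to 5. Treated pups 6, 8 and 10 were above every untreated pup and treated pup 7 was below 3 of them. The log2 fold change of 0.61 (SE 0.23, adjusted p = 0.111, edgeR) did not pass, and it reached 0.82 (adjusted p = 0.0358, edgeR) without untreated pup 1, when 4.16% of all genes rose and 3% fell. Serpina3n belongs to a cluster of near-identical serpin genes, so the assignment of its reads is uncertain.

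The secreted members Lcn2 and Timp1, together with Aspg, an asparaginase, had the largest ratios of highest to lowest untreated library among the members averaging at least 1 CPM over all 10 libraries, 34.7 for Lcn2, 17.6 for Timp1 and 6.69 for Aspg. Lcn2, a lipocalin that binds bacterial iron carriers, was at 0.686, 0.507, 0.397, 1.48 and 0.527 CPM in allopregnanolone pups 6 to 10. In untreated pups 1 to 5 it was at 6.17, 0.388, 0.198, 5.78 and 0.178 CPM. Untreated pups 1 and 4 were thus high, and the other 3 lay below every treated pup. Its log2 fold change was -1.80 with an SE of 0.86 (adjusted p = 0.195, edgeR). Neutrophils also make Lcn2, and the 7 neutrophil markers, none above the count minimum, summed to 6.05 CPM in untreated pup 4 but to 0.312 CPM in untreated pup 1, and to 0.784 to 6.20 CPM with allopregnanolone.

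Timp1, an inhibitor of matrix metalloproteinases, was at 0.567, 0.507, 0.348, 0.461 and 0.383 CPM in allopregnanolone pups 6 to 10, against 4.69, 0.517, 1.11, 1.29 and 0.267 CPM in untreated pups 1 to 5. Untreated pup 1 was far above the rest, and untreated pup 5 was the lowest of the 10. On the log2 scale the difference was -1.78 (SE 0.62, adjusted p = 0.0774, edgeR), and -0.80 without untreated pup 1. Aspg was at 2.65, 1.75, 2.43, 2.26 and 1.49 CPM in allopregnanolone pups 6 to 10, and at 4.76, 3.36, 3.29, 3.19 and 0.712 CPM in untreated pups 1 to 5, again with pup 5 lowest and the other 4 above all treated pups (log2 fold change -0.53, SE 0.35, adjusted p = 0.358, edgeR).

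Among the receptors, Cd44, which binds hyaluronan, was at 10.6 to 14.8 CPM with allopregnanolone and 11.6 to 21.2 CPM untreated (log2 fold change -0.45, SE 0.16, adjusted p = 0.0804, edgeR). S1pr3, a receptor for the sphingosine-1-phosphate that Sphk1 makes, had a log2 fold change of -0.33 (SE 0.13, adjusted p = 0.126), and Osmr, the receptor for oncostatin M, one of -0.38 (SE 0.23, adjusted p = 0.324). The metalloreductase Steap4 was at 3.12 CPM in untreated pup 1 and at 0.129 to 0.890 CPM in the other untreated pups, against 0.225 to 0.746 CPM with allopregnanolone. The copper carrier Cp and the small heat shock protein Hspb1 had log2 fold changes of -0.07 (95% interval -0.50 to 0.37) and 0.02 (95% interval -0.53 to 0.58).

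**Figure D3:**
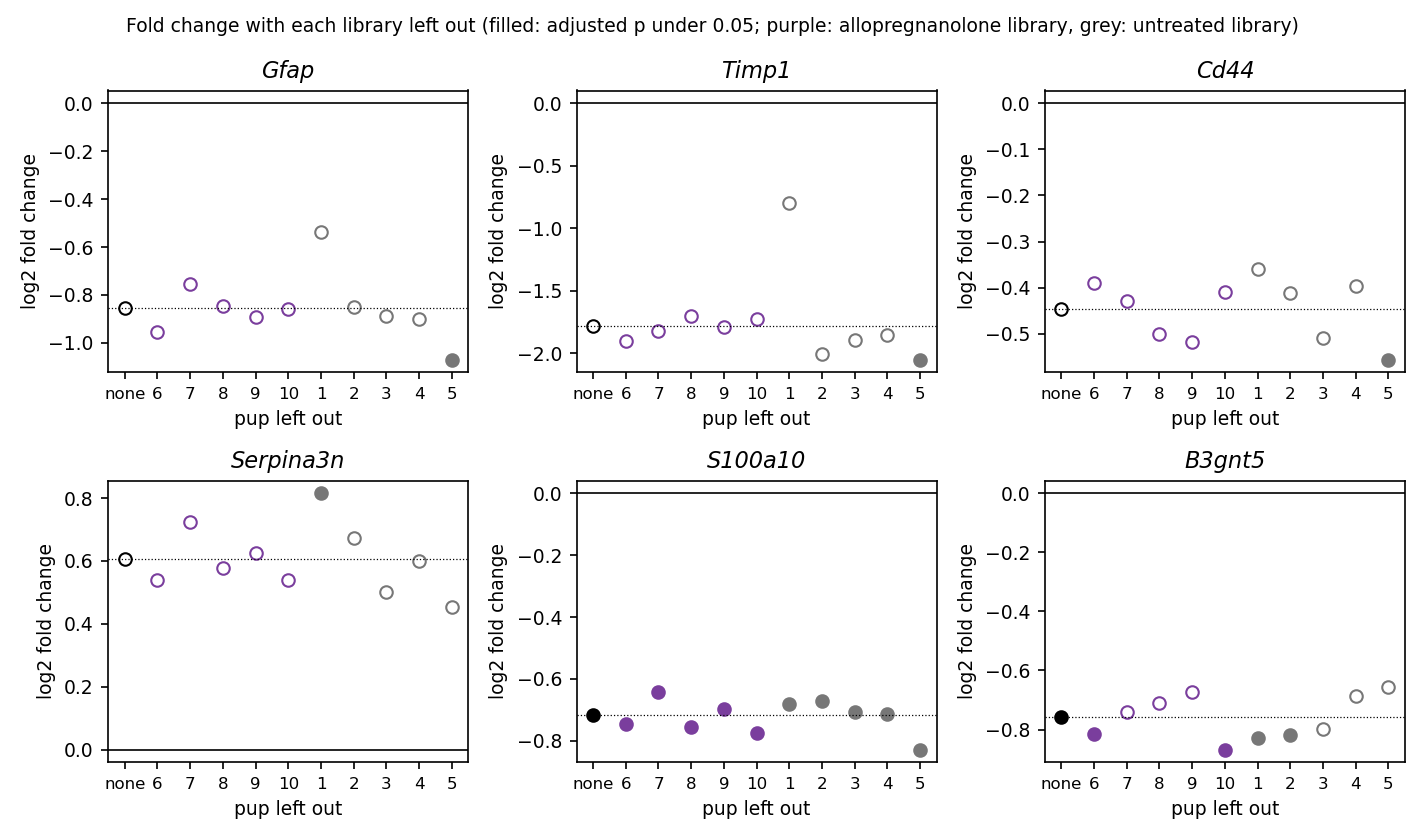
Log2 fold change of 6 members with no library left out (black) and with each allopregnanolone library (purple) or untreated library (grey) left out in turn, where filled points passed an adjusted p of 0.05. Gfap, Timp1 and Cd44 passed without untreated pup 5 and in none of the other 9 left-out fits, Serpina3n passed without untreated pup 1 alone, and S100a10 passed in all 10.

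The start regions of 4 members are shown because the interleukin 6 family acts through STAT factors, whose common site is TTCNNNGAA, and because these members include the lower B3gnt5 and 3 with that site. Each sequence runs from 250 bases before to 10 bases after a RefSeq start on GRCm38.p6, 5′ to 3′, with matches on either strand to TTCNNNGAA or to the AP-1 motif TGANTCA in capitals.
Gfap (chr11:102897191-102897450, minus strand): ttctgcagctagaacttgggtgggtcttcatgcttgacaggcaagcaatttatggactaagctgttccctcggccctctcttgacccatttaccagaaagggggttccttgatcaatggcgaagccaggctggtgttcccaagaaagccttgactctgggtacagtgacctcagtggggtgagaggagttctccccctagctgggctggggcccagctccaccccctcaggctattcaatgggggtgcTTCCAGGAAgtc
Emp1 (chr6:135362681-135362940, plus strand): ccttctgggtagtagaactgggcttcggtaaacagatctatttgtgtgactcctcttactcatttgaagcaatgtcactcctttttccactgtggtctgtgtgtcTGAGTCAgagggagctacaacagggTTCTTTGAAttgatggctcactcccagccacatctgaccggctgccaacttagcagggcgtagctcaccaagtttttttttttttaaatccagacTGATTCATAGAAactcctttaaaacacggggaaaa
Steap4 (chr5:7960222-7960481, plus strand): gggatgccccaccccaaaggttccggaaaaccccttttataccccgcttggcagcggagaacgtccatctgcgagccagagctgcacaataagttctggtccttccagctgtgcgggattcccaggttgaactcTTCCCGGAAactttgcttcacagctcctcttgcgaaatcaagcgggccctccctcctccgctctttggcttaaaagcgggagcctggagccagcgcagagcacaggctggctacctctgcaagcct
B3gnt5 (chr16:19759984-19760243, plus strand): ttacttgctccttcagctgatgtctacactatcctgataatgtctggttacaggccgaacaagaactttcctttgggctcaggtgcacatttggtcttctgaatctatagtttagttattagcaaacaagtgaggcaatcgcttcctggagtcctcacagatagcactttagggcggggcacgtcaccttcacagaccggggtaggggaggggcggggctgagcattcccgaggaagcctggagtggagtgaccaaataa
The Gfap match spans the RefSeq start, which lies 3712 bases from the GENCODE gene start, and in Emp1 the second AP-1 match overlaps the second TTCNNNGAA match. B3gnt5 holds none of these letters in this window. Of the 28 members with a RefSeq window of 250 bases before to 50 after a start, 6 held TTCNNNGAA (21.4%, against 9.55% of 27025 genes), 5 held TGANTCA (17.9%, against 8.97%), and 6 held an interferon response motif, 2 copies of GAAA with 2 free bases between them (21.4%, against 3.99%). A match in these letters describes the sequence and is neither a site nor a cause. The members with the interferon response motif were Gbp2, H2-T23, Srgn and Fbln5 of the neurotoxic type and Tgm1 and Tm4sf1 of the protective type.

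Neurotoxic-type genes had 0 of 9 members past the threshold in either direction in edgeR, limma or DESeq2. Of all genes tested, 11.3% passed in edgeR, 11.2% in limma and 15.4% in DESeq2. At an unadjusted p under 0.05, edgeR had 2 of the 9 higher and 2 lower, where 14.4% of all genes were higher and 13.1% lower. The median log2 fold change of the 9 was -0.06. The interferon-inducible GTPases Gbp2 and Iigp1 belong to families of similar copies. Gbp2 was at 0.745 to 1.91 CPM with allopregnanolone and 1.34 to 4.96 CPM untreated (adjusted p = 0.183, edgeR), and Iigp1 at 0.596 to 1.20 CPM with allopregnanolone and 1.02 to 2.54 CPM untreated (adjusted p = 0.160). Psmb8, a subunit of the immunoproteasome, was at 0.192 to 1.62 CPM with allopregnanolone and 0.890 to 2.97 CPM untreated (adjusted p = 0.200, edgeR). All of these ranges overlapped. An antisense gene shares 14.7% of the exon bases of Psmb8, and the strand setting of the counting is not known here.

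The class I antigen-presenting genes H2-D1 and H2-T23 had log2 fold changes of 0.19 (95% interval -0.42 to 0.79) and 0.25 (95% interval -0.39 to 0.89). H2-D1 was at 31.5, 19.9, 22.7, 17.0 and 21.3 CPM in allopregnanolone pups 6 to 10, and at 32.5, 21.7, 13.9, 23.1 and 7.97 CPM in untreated pups 1 to 5. The untreated range enclosed the treated one, with pup 1 highest and pup 5 lowest of all 10. Both genes belong to a family of near-identical copies, so their counts are uncertain. Ggta1, which adds galactose to cell surface sugars, had a log2 fold change of -0.44 (SE 0.19, adjusted p = 0.162, edgeR), and Srgn, a proteoglycan of secretory granules, one of -0.06.

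Fbln5, an elastic fibre protein, and Amigo2, an adhesion protein of the nervous system, had positive log2 fold changes of 0.39 each (SE 0.15 each, adjusted p = 0.117 and 0.109, edgeR). Fbln5 was at 5.42 to 10.6 CPM with allopregnanolone and at 5.58 to 7.12 CPM untreated, the smallest ratio of highest to lowest untreated library of all members (1.28). Its highest value was in treated pup 6, whose 8 mural cell and fibroblast markers summed to 665 CPM, against 286 to 311 CPM in the other treated and 269 to 320 CPM in the untreated pups. Amigo2 was at 10.7 to 18.5 CPM with allopregnanolone and at 9.87 to 14.2 CPM untreated. Fbln5 rose past the threshold without treated pup 10 (log2 fold change 0.50, adjusted p = 0.0295, edgeR), when 5.18% of all genes rose and 3.27% fell, and Amigo2 without treated pup 8 (0.49, adjusted p = 0.0337), when 5.38% rose and 3.56% fell.

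**Figure D4:**
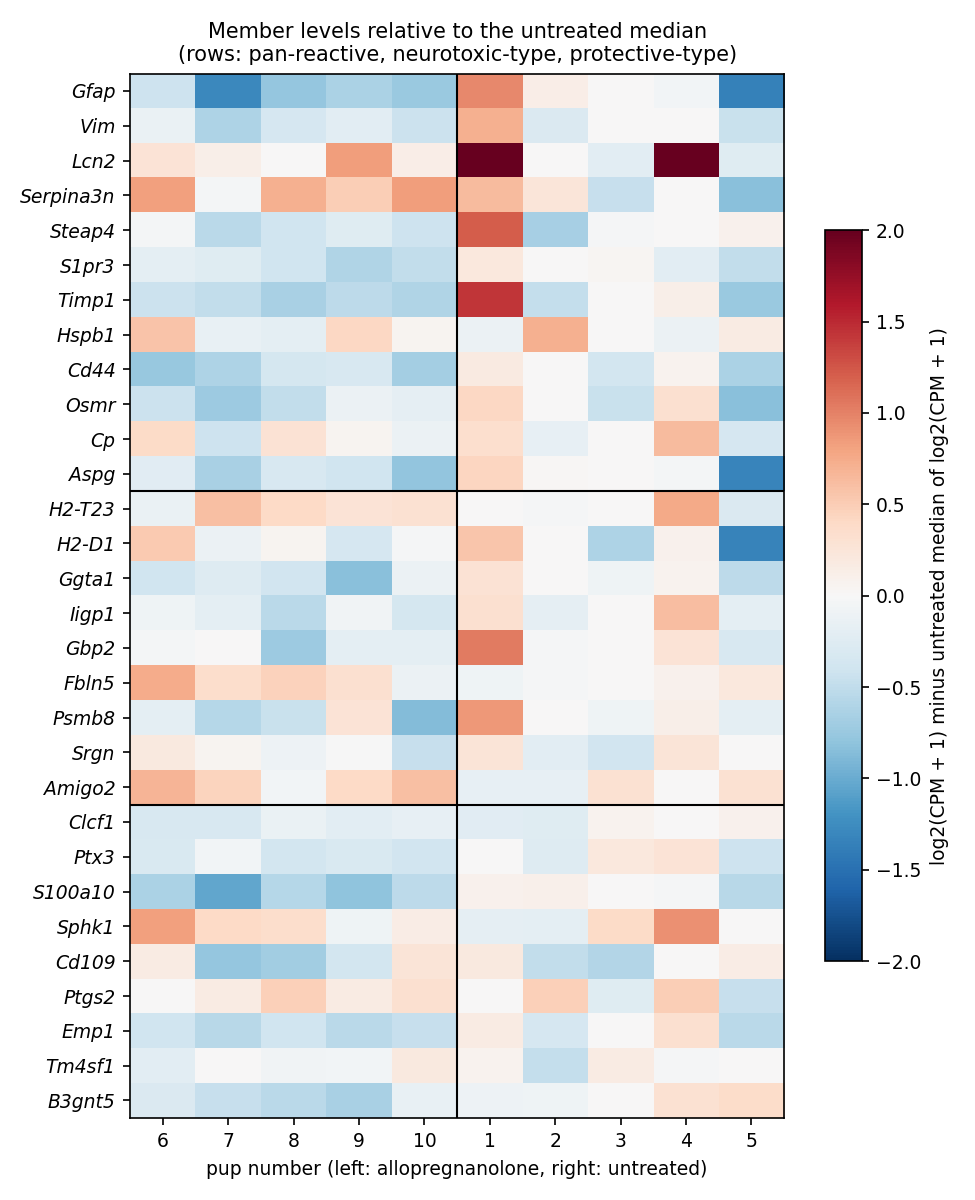
Log2(CPM + 1) of the 30 tested members in each library (columns: allopregnanolone pups 6 to 10, then untreated pups 1 to 5) minus the median of the 5 untreated libraries, with the colour scale ending at -2 and 2. Red cells gather in untreated pup 1 and blue cells in untreated pup 5 among pan-reactive and several neurotoxic-type rows.

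Untreated libraries differed widely among themselves in these genes. Untreated pup 1 was the highest of the 5 untreated libraries for 17 of the 32 members (53.1%) and untreated pup 5 the lowest for 20 (62.5%). Of the 17101 genes tested, pup 1 was highest for 3131 and pup 5 lowest for 3935. Among pan-reactive genes pup 1 was highest for 10 of 12 and pup 5 lowest for 10 of 12, and for neurotoxic-type genes these were 5 and 6 of 9. For protective-type genes the extremes were more evenly placed, with untreated pup 4 highest for 5 of 11 and pups 2 and 5 lowest for 4 each. B3gnt5, Clcf1 and Fbln5 had their highest untreated level in pup 5, in contrast to the pan-reactive members.

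The SD of log2(CPM + 1) was larger among untreated than among allopregnanolone libraries for 27 of the 32 members (26 of the 30 tested), whereas this was so for 47.4% of all genes tested. The median SD of the tested members was 0.25 with allopregnanolone and 0.38 untreated, against 0.14 and 0.13 over all genes tested. Lcn2 had the largest untreated SD, 1.36, followed by Timp1 at 0.84 and Gfap at 0.83, while their SDs with allopregnanolone were 0.33, 0.09 and 0.32. The highest untreated library exceeded the lowest by a median of 2.42-fold over the 32 members, and by 5.01-fold for Gfap. Among allopregnanolone libraries the median was 1.83-fold, and the ratio for Gfap was 1.82-fold. This is a description of 5 pups per group, with no test.

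**Figure D5:**
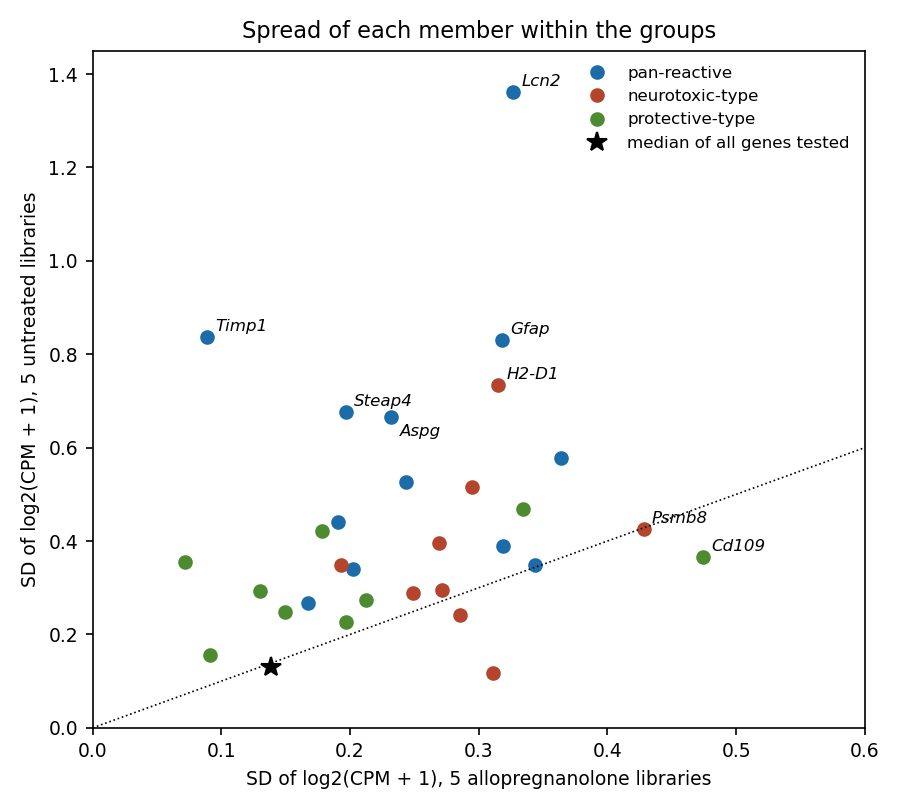
SD of log2(CPM + 1) over the 5 untreated libraries (vertical) against the SD over the 5 allopregnanolone libraries (horizontal) for each tested member, with the dotted line where both are equal and a star at the median of all genes tested. Most members lie above the line, Lcn2 farthest at 1.36, and 4 lie below it, Cd109, Fbln5, Amigo2 and Psmb8.

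Leaving out untreated pup 5 raised the number of members that fell to 7 of 30 (23.3%), where 5.75% of all genes fell and 7.94% rose. These were Gfap, Timp1, Cd44, S1pr3, Aspg, Emp1 and S100a10, with log2 fold changes of -2.05 for Timp1 to -0.43 for S1pr3, and none rose in that fit (edgeR, with 3 higher and 17 lower at an unadjusted p under 0.05, against 2665 higher and 2316 lower of all 17101 genes). Untreated pup 5 was the lowest untreated library for 20 of the 32 members, so leaving it out raises the untreated mean of those members. The count of 7 is therefore no further support. Leaving out untreated pup 1, 2 members fell, S100a10 and B3gnt5, and Serpina3n rose, where 3% of all genes fell and 4.16% rose. At an unadjusted p under 0.05 edgeR then had 5 members lower and 1 higher, against 2098 higher and 1980 lower of all 17101 genes. The pan-reactive median log2 fold change was -0.28 in that fit and -0.42 with all libraries. Without untreated pups 1 and 5, a setting chosen after the data had been seen, 2 members fell, Gfap and S100a10 (3.43% of all genes fell and 5.27% rose). Without untreated pup 5 and treated pup 6 the 7 were joined by Vim (5.79% of all genes fell and 7.31% rose). With a filter of 100 counts S100a10 alone of the members fell (6.97% of all genes fell and 9.03% rose). Without untreated pups 1 to 3, whose library names carry another prefix, no member passed in edgeR (4 lower and 1 higher at an unadjusted p under 0.05), and 0.134% of all genes fell and 0.444% rose. The labels do not say what the prefix stands for, and no treated library carries it, so it and these pups cannot be told apart.

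Genes that belong to the same published panel but lie outside the 32 members made a list of 9. Of these 6 were tested, 1 rose and 1 fell (33.3% in all, against 11.3% of all genes tested). Fkbp5, a neurotoxic-type panel gene that also answers to glucocorticoids, rose to 22.5, 29.2, 40.9, 46.3 and 48.7 CPM in allopregnanolone pups 6 to 10, against 22.7, 20.4, 20.6, 19.5 and 19.5 CPM in untreated pups 1 to 5 (1.82-fold, adjusted p = 0.00757, edgeR). Cd14, a protective-type panel gene and microglial co-receptor for bacterial lipopolysaccharide, fell to 2.81 ± 0.443 CPM against 7.20 ± 4.75 CPM untreated (SD, n = 5 each, adjusted p = 0.0239, edgeR). C3, the complement protein often used to mark neurotoxic-type astrocytes, was at 0.282 to 4.62 CPM with allopregnanolone and 2.11 to 10.2 CPM untreated, and did not pass (adjusted p = 0.0768, edgeR). Serping1 did not pass either (adjusted p = 0.854), and the chemokine Cxcl10 was below the count minimum, at 0 to 0.209 CPM with allopregnanolone and 0.238 to 5.19 CPM untreated.

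Upstream of the reactive state, 2 of 13 tested genes of gp130 and STAT3 signalling rose and 1 fell. That is 23.1% in all, against 11.3% of all genes tested (6.61% rose and 4.65% fell, edgeR). The receptor genes Cntfr and Lifr rose 1.34-fold and 1.30-fold (adjusted p = 0.0141 and 0.0202, edgeR), and the kinase gene Jak2 was 1.26-fold lower (adjusted p = 0.0169). Stat3 itself was at 52.0 ± 1.71 CPM with allopregnanolone and 55.7 ± 4.89 CPM untreated (SD, n = 5 each, adjusted p = 0.327, edgeR). Socs3, the feedback inhibitor that STAT3 induces, was at 1.71 to 2.74 CPM with allopregnanolone and 2.18 to 4.05 CPM untreated (adjusted p = 0.0502, edgeR). Of 23 tested inducers and regulators 1 rose and 2 fell, 13% in all and close to the 11.3% of all genes tested. Il1a, one of the microglial signals that induce the neurotoxic type in cultured astrocytes, was 5.64-fold lower on 2 to 75 counts per library (adjusted p = 0.00569, edgeR), the receptor gene Tgfbr1 was 1.33-fold lower (adjusted p = 0.0258), and Smad3 rose 1.32-fold (adjusted p = 0.0315).

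Of 19 tested genes of the cytoskeleton and of scar matrix, 2 rose and 2 fell, 21.1% in all against 11.3% of all genes tested. Tnc, the matrix protein tenascin C, was 1.70-fold lower at 17.5 to 27.8 CPM with allopregnanolone against 31.5 to 42.1 CPM untreated (adjusted p = 0.00146, edgeR). Nes, the intermediate filament nestin of progenitors and reactive astrocytes, was 1.20-fold lower (adjusted p = 0.0406). Sparc, a matrix-binding protein of glia and vessels, rose 1.46-fold (adjusted p = 0.00569) and Cspg4, a proteoglycan of oligodendrocyte precursors and pericytes, rose 1.22-fold (adjusted p = 0.0256). For all 4 of these genes, Cspg4 by the narrowest margin (36.7 against 36.6 CPM), all 5 treated libraries lay on one side of all 5 untreated ones. Over all genes tested, 4.2% had every treated library below every untreated one and 5.44% had every one above. The 4 were picked by their calls in the same libraries, so this separation is no further support.

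Among markers of resting astrocytes, the gap junction gene Gjb6 rose 2.34-fold and the growth factor receptor Fgfr3 1.51-fold. For each of the 7 astrocyte markers that rose, all 5 treated libraries were above all 5 untreated ones, a pattern seen in 5.44% of all genes tested. The 7 were picked by their calls in the same libraries, so this separation is no further support. Aqp4, the water channel of astrocyte endfeet, had the same untreated extremes as Gfap, at 342 CPM in untreated pup 1 and 174 CPM in untreated pup 5, against 171 to 232 CPM with allopregnanolone (adjusted p = 0.153, edgeR). Of 6 radial glia markers Fabp7 and Ptprz1 fell (33.3%, against 4.65% of all genes tested). Fabp7 fell to 25.1 to 30.8 CPM with allopregnanolone against 39.7 to 60.6 CPM untreated (adjusted p = 0.00105, edgeR).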

How the data were processed

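The authors deposited 1 table of estimated counts for 55471 identifiers and 10 libraries. Although its name says normalized, 86.8% to 87.6% of values above 0 are whole numbers and totals differ, so values were rounded and analysed as counts. Partek and mm10 are named in the submitters' processing notes; aligner, counter and strand setting: not given in the sources used here. Libraries came from a directional kit, per the labels' protocols. Names and positions came from GENCODE M21, in which 55230 identifiers were found, and promoter windows from RefSeq (GRCm38.p6).

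Genes with 10 or more counts in at least 5 libraries (17101) were scaled by TMM and tested with edgeR 4.0.16 in R 4.3.3 (quasi-likelihood, two-sided, no covariate, Benjamini-Hochberg over all genes). Fold changes are allopregnanolone over untreated, SEs were derived from the F statistic, and intervals are 95%. Alternatives used limma 3.58.1, DESeq2 1.42.0, other scalings and filters, marker covariates and left-out libraries. Figures used matplotlib 3.10.9 in Python 3.11.15. The test was tried on simulated data.

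The members and lists were chosen with earlier results of these data known, so they are no independent evidence. Every member is accounted for, and values in each library are given for members past the threshold, Gfap, Vim, the 3 with the largest ratio of highest to lowest untreated library among those averaging at least 1 CPM over all libraries, and, chosen after their values were seen, Serpina3n and H2-D1. Of other lists up to 4 genes with the smallest p were named, and C3, Cxcl10, Serping1, Stat3, Anxa2 and Aqp4 after their values were seen. Library pairs of 1 group differed by more than counting noise (chi-square per degree of freedom at least 5.45). Mice were treated as separate animals, since each label numbers its own mouse; litters and sex are not labelled.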

Additional observations from a re-analysis of the deposited data

Results flagged for a closer look

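In 7 of 64 groups of 5 libraries (32 members in each treatment group), 1 library stood apart from the other 4 by Dixon's ratio of gap to range on log2(CPM + 1), where values above the 95% critical value are listed and chance marks about 1 in 20 groups. Of the 7, 2 were in the allopregnanolone group and 5 in the untreated group. With allopregnanolone, Gbp2 was low in pup 8 at 0.745 CPM, the others being at 1.52 to 1.91 (ratio 0.719), and Ptx3 was high in pup 7 at 0.788 CPM, the others being at 0.431 to 0.508 (ratio 0.767).

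In the untreated group, pup 5 was the low library for S100a10, at 7.25 CPM with the others at 10.999 to 12.1 (ratio 0.814), and for Aspg, at 0.712 CPM with the others at 3.19 to 4.76 (ratio 0.737). H2-T23 was high in untreated pup 4 at 3.19 CPM, the others being at 1.02 to 1.48 (ratio 0.718), and Psmb8 was high in untreated pup 1 at 2.97 CPM, the others being at 0.890 to 1.34 (ratio 0.712). Tm4sf1 was low in untreated pup 2 at 2.72 CPM, the others being at 4.11 to 4.79 (ratio 0.719).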

How the results depend on the processing

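No paired analysis was possible because the pups carry their own numbers, which the groups do not share. Over 22 alternatives the members that fell, 2 in the edgeR test as reported, numbered 1 with a filter of 100 counts (which leaves out B3gnt5), 4 with DESeq2, 8 without untreated pup 5 and treated pup 6, and 1 to 7 with each library left out, the highest without untreated pup 5. They numbered 0 without untreated pups 1 to 3 and with the astrocyte marker mean as covariate, whose marker sums do not overlap between the groups (0 higher and 1 lower at an unadjusted p under 0.05 in edgeR). In that fit 0 of all genes passed in either direction (318 higher and 414 lower at an unadjusted p under 0.05). Members that rose numbered 0 to 1 with each library left out and 0 otherwise. Over all genes, 76 rose and 23 fell without untreated pups 1 to 3, and 1451 fell with library totals alone, where 783 rose and the median shift was -0.06 on the log2 scale. With each library left out 647 to 1357 genes rose and 437 to 984 fell. S100a10 passed in 20 and B3gnt5 in 11 of their 22 and 21 alternatives, and neither changed sign. The cause of these changes was not tested. Depth limits Lcn2, Timp1, Steap4, Psmb8 and Ptx3, with under 10 counts in some libraries, and intervals cover the spread between these pups only.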
